A study of Rattus norvegicus with 6 samples.

Results

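The family described here holds the arms of miR-192 and miR-194 together with miR-215, taken by name from a table of 764 rat miRNA rows. The rule names 5 mature miRNAs, and 4 of them, rno-miR-192-5p, rno-miR-192-3p, rno-miR-194-5p and rno-miR-194-3p, had a row. No value of rno-miR-215 was analysed here. Small RNA was sequenced from tissue labelled testicle of male Sprague Dawley rats, from 3 HO-1 knockout and 3 wild type libraries. HO-1 is heme oxygenase 1, an inducible enzyme that breaks down heme. The left testis had in each case been turned by 720° for 2 h and released, and tissue was taken after 3 days, so the knockout and the wild type share the injury and no uninjured library was analysed here. HO-1 messenger RNA was not measured by this assay, and the knockout labels were not checked against it.

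miR-192 and miR-194 are cut from shared primary transcripts and are best known from liver, kidney and intestinal epithelium, where hepatocyte nuclear factors drive their transcription. p53 also induces the family, and in human cells miR-192, miR-194 and miR-215 restrain the cell cycle. In mouse kidney, miR-192 takes part in TGF-beta signalling and fibrosis. From each hairpin, usually the guide strand is kept in Argonaute and the other, the passenger strand, is degraded.

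The mature sequences are shown because the seed, bases 2 to 8, sets which messenger RNAs a miRNA can pair with. They come from RefSeq on build GRCr8, in which all 5 names matched, and the seed is in capitals.
miR-192-5p: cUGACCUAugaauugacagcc
miR-215: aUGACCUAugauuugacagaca
miR-192-3p: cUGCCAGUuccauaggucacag
miR-194-5p: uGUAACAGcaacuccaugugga
miR-194-3p: cCAGUGGGgcugcuguuaucu
The 5 miRNAs carry 4 different seeds, because miR-192-5p and miR-215 share UGACCUA. Counted from 1 at the 5′ end of miR-192-5p, miR-215 differs from it over the first 21 positions by C1A, A12U and C20A. In the RefSeq table miR-192-3p shares its seed with miR-3084c-3p, which was listed at 0 RPM in all 6 libraries.

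The hairpins are shown because they decide which locus a read can be placed in. The mature arms that RefSeq annotates are in capitals.
Mir194-2: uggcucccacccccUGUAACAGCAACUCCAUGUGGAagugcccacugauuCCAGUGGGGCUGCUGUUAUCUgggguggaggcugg
Mir192: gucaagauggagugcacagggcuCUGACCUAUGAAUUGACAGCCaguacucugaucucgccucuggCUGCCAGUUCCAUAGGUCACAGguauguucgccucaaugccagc
Mir194-1: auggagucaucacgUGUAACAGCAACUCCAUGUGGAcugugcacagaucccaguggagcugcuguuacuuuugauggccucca
Mir215: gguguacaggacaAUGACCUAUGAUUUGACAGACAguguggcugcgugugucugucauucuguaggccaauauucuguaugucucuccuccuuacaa
On GRCr8 the Mir194-2 hairpin lies at chr1:212994024-212994108 and Mir192 at chr1:212994209-212994318, both on the plus strand with 100 bases between them. Mir194-1 lies at chr13:99382716-99382798 and Mir215 at chr13:99382990-99383086, also on the plus strand, with 191 bases between them. The 2 copies of miR-194-5p are identical, so its value sums over both loci. miR-194-3p is annotated in Mir194-2 alone, and the matching stretch of Mir194-1 differs from it, counted from 1 at its 5′ end, by G8A, U19C and C20U. miR-192-5p, miR-192-3p and miR-194-3p therefore belong by annotation to chromosome 1, and miR-194-5p to chromosomes 1 and 13.

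Levels are reads per 1000000 assigned reads (RPM), and the library totals recovered from them were 8300536 to 10042673 reads. miR-122-5p, the hepatocyte miRNA, held 40.2% to 46.4% of the reads in the knockout libraries and 32.7% to 36.6% in the wild type libraries. Germ cell markers summed to 24.2 to 28.95 RPM in the knockout and 34.5 to 49.1 RPM in the wild type, over 11 markers of which miR-463-3p, miR-880-3p and miR-883-3p were at 0. The gonadal miR-202-5p lay between 0.71 and 2.22 RPM over all 6 libraries, and miR-202-3p was at 0. The labelled tissue was therefore not borne out by its defining miRNAs. In bulk libraries, fewer cells of a type and less RNA per cell cannot be told apart.

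All 4 arms were lower in the knockout libraries than in the wild type libraries, and 1 of them, the guide strand miR-194-5p, passed the test over all miRNAs. miR-192-5p, the guide strand of miR-192, was the fifth most abundant miRNA of every library, and miR-194-5p stood at rank 12 or 13. The passenger strands were rare, at ranks 195 to 227 for miR-192-3p and 124 to 135 for miR-194-3p.

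rno-miR-192-5p had 41156.5, 42569 and 44804 RPM in knockout libraries 1 to 3, against 50218, 55930 and 50672 RPM in wild type libraries 1 to 3. The groups did not overlap, and the highest value was that of wild type library 2. The mean was 42843 ± 1839 RPM in the knockout and 52273 ± 3175 RPM in the wild type (SD, n = 3 each), 18.0% lower in the knockout. On the scale of log2(RPM + 1) the change was -0.29 (SE 0.08, 95% interval -0.48 to -0.10), and it did not pass over all miRNAs (limma, Benjamini-Hochberg adjusted p = 0.091). It passed in 1 of 18 other settings, the test limited to miRNAs averaging at least 10 RPM (limma adjusted p = 0.016). With TMM scaling the groups overlapped and the change was -0.06 (limma adjusted p = 0.83), and with totals without the 10 most abundant miRNAs they also overlapped and it was -0.03 (limma adjusted p = 0.91).

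rno-miR-194-5p had 9654, 12408 and 10570 RPM in knockout libraries 1 to 3, against 15686, 14943 and 14742 RPM in wild type libraries 1 to 3. The 3 wild type libraries lay close together, and the knockout libraries were more spread, with library 2 highest. The mean fell to 10877 ± 1403 RPM in the knockout, against 15124 ± 497 RPM in the wild type (SD, n = 3 each), 28.1% lower, with a log2 change of -0.48 (SE 0.11, 95% interval -0.73 to -0.24, limma adjusted p = 0.038). This call was lost in 14 of 18 other settings, among them TMM scaling (log2 change -0.26, limma adjusted p = 0.24) and the omission of any library except knockout 2 (limma adjusted p between 0.075 and 0.17).

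rno-miR-194-3p, the passenger strand that marks the chromosome 1 locus, had 53.01, 65.8 and 66.6 RPM in knockout libraries 1 to 3, against 79.1, 83.6 and 79.7 RPM in wild type libraries 1 to 3. The groups did not overlap. The mean was 61.8 ± 7.6 RPM in the knockout and 80.8 ± 2.5 RPM in the wild type (SD, n = 3 each), with a log2 change of -0.39 (SE 0.15, 95% interval -0.73 to -0.05) that did not pass (limma adjusted p = 0.19). With TMM scaling the change was -0.17, and with totals without miR-122-5p it was -0.19, and in both cases the groups overlapped.

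rno-miR-192-3p, the passenger strand of miR-192, had 5.9, 10.7 and 11.2 RPM in knockout libraries 1 to 3, against 18.1, 15.2 and 13.7 RPM in wild type libraries 1 to 3. These values rest on 49, 105 and 101 reads in the knockout and 182, 139 and 130 reads in the wild type. Knockout library 1 was the lowest by a wide margin, and the groups did not overlap. The log2 change was -0.74 (SE 0.28, 95% interval -1.38 to -0.09), the largest of the 4 arms and the least precise, and it did not pass (limma adjusted p = 0.19). Without knockout library 1 it was -0.47 (limma adjusted p = 0.41).

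**Figure D1:**
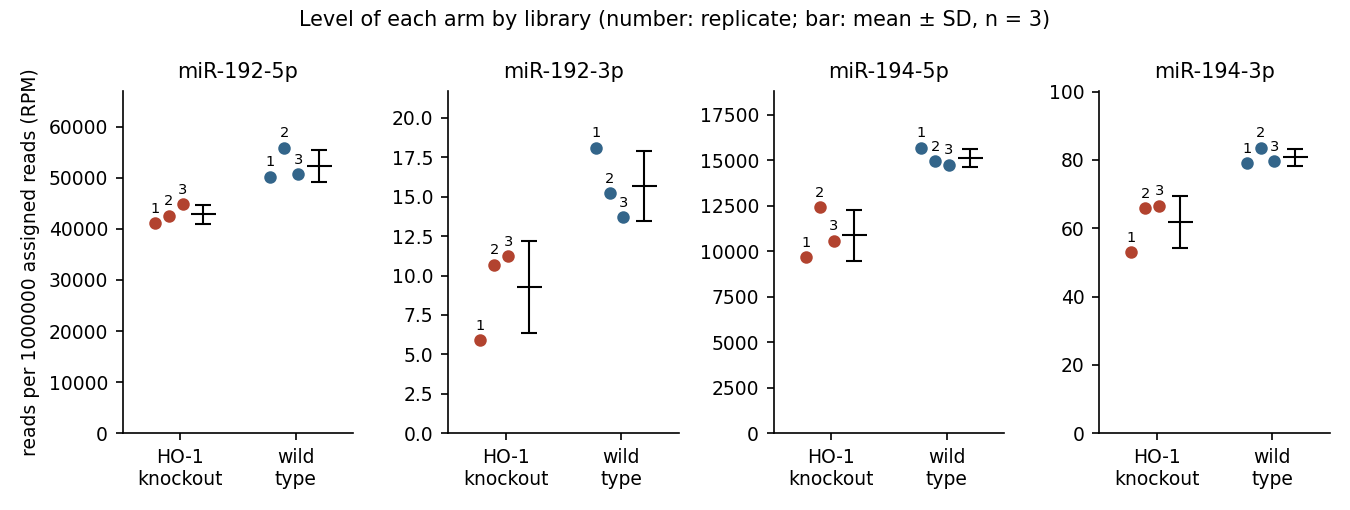
Level of each arm in RPM (linear axes from 0) in 3 HO-1 knockout and 3 wild type libraries, where points are libraries numbered by replicate and the bar is the mean ± SD. In every panel the knockout points lie below the wild type points, for example 41156.5 to 44804 against 50218 to 55930 RPM for miR-192-5p.

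The authors' deposited table gives log2 changes of -0.29 for miR-192-5p, -0.48 for miR-194-5p, -0.39 for miR-194-3p and -0.76 for miR-192-3p. The p-values in the authors' deposited table are 0.62, 0.069, 0.31 and 0.045 in the same order, and the sources used here do not say how they were made. Limma's unadjusted p was 0.0086, 0.0020, 0.029 and 0.030 in that order, below 0.05 for each of the 4 arms. It was also below 0.05 for 110 of all 570 tested miRNAs. In the test limited to miRNAs averaging at least 10 RPM, it was so for 87 of 218.

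The members were read against all miRNAs. Of 570 tested miRNAs, 32 (5.61%) fell in the knockout by the limma test, beside 1 of the 4 arms. In the test limited to miRNAs averaging at least 10 RPM, 41 of 218 fell, among them miR-192-5p and miR-194-5p. All 3 knockout libraries lay below all 3 wild type libraries for 4 of the 4 arms, beside 21.6% of the 570. Among the 218 miRNAs averaging at least 10 RPM, which include the 4 arms (miR-192-3p through its wild type values), this share was 41.7%. Lower values were thus common at this abundance. The 218 miRNAs had a median log2 change of -0.29, and TMM scaling moved that median to -0.07. Relative to the median, the log2 change was -0.20 for miR-194-5p, -0.10 for miR-194-3p and -0.45 for miR-192-3p. miR-192-5p sat at the median, with 108 of the 218 miRNAs more negative. Relative to it, its difference was -0.0006, and 0.009 with TMM scaling.

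miR-122-5p, the most abundant miRNA, differed in the opposite direction to these arms. The order of miR-194-5p within each genotype was the reverse of that of miR-122-5p, which held 46.4%, 40.2% and 43.7% of the reads in knockout libraries 1 to 3 and 32.7%, 36.3% and 36.6% in wild type libraries 1 to 3. The order of miR-192-5p was not the reverse of that of miR-122-5p in either genotype. With totals counted without miR-122-5p, miR-194-5p had 18001, 20766 and 18759 RPM in knockout libraries 1 to 3, against 23305, 23448 and 23235 RPM in wild type libraries 1 to 3. The groups still did not overlap, with a log2 change of -0.29 that missed the threshold (limma adjusted p = 0.075). On the same totals miR-192-5p had 76741, 71240 and 79518 RPM in the knockout, against 74608, 87762 and 79865 RPM in the wild type. Its groups overlapped, and the log2 change was -0.09 (95% interval -0.30 to 0.12, limma adjusted p = 0.66). On these totals every knockout library lay below every wild type library for miR-194-5p and miR-192-3p, 2 of the 4 arms, beside 14% of the 570 miRNAs.

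**Figure D2:**
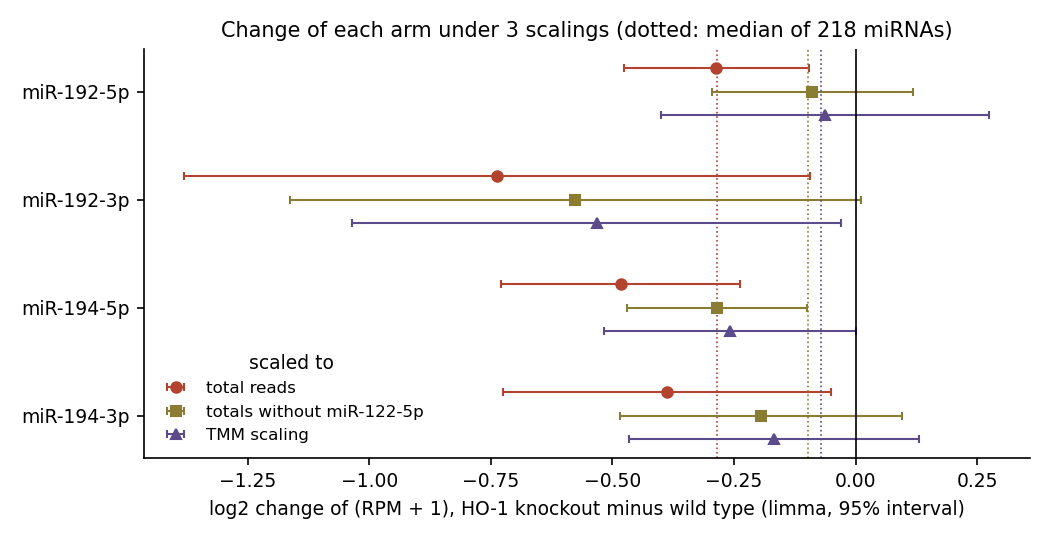
Log2 change of (RPM + 1), HO-1 knockout minus wild type, with limma's 95% interval, for each arm under total reads, totals without miR-122-5p and TMM scaling; dotted lines are the median of 218 miRNAs in the same colour. miR-192-5p lies on the dotted line in each case, and miR-194-5p lies at -0.48, -0.29 and -0.26.

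Together the 4 arms held 5.09%, 5.51% and 5.55% of all reads in knockout libraries 1 to 3, against 6.60%, 7.10% and 6.55% in wild type libraries 1 to 3. The share averaged 5.38% ± 0.25 in the knockout and 6.75% ± 0.30 in the wild type (SD, n = 3 each; exact two-sided permutation p = 0.1, the smallest that 3 against 3 allows). Among the reads other than miR-122-5p it averaged 9.51% ± 0.32 in the knockout and 10.4% ± 0.67 in the wild type, where knockout library 3 lay above wild type library 1 (exact two-sided permutation p = 0.2). The difference of -0.909 percentage points was -0.552 without wild type library 2. Over 6 such tests of shares and ratios, the Benjamini-Hochberg adjusted p was 0.2 for the first and 0.3 for the second, by exact permutation.

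The arms of miR-192 were far from equal in every library. Among 49 miRNAs whose 5p and 3p arms both averaged at least 10 RPM, miR-192 had the largest arm imbalance, a mean log2 ratio of 11.8, and miR-194 came seventh with 7.48. The median size of the imbalance over the 49 was 3.39. miR-192 entered the 49 through the wild type, as miR-192-3p averaged 9.28 RPM in the knockout and 15.7 RPM in the wild type. Hairpins with a rarer arm were not ranked, so the places hold among the 49 only. The share of 3p reads among both arms of miR-192 was 0.0143% in knockout library 1 (95% Wilson interval 0.0108% to 0.0190%) and 0.0361% in wild type library 1 (0.0312% to 0.0417%), the extremes of the 6 libraries. For miR-194 the same share ran from 0.527% to 0.626% in the knockout and from 0.501% to 0.556% in the wild type.

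**Figure D3:**
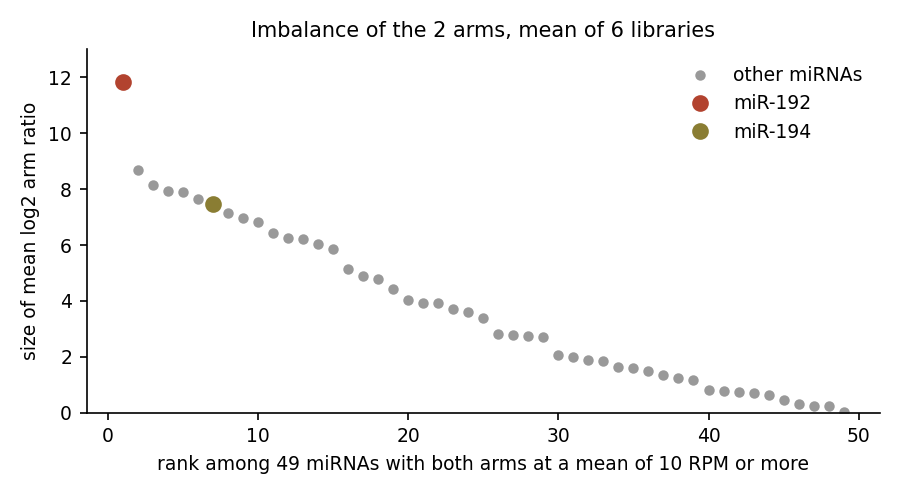
Size of the mean log2 ratio between the arms, over 6 libraries, for 49 miRNAs with both arms averaging at least 10 RPM, by rank. miR-192 lies alone at 11.8, and miR-194 lies at rank 7 with 7.48, against a median of 3.39. miR-192-3p met the limit of 10 RPM through the wild type, and hairpins with a rarer arm are not shown.

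The ratio of miR-192-5p to miR-192-3p was 6976, 3978 and 3990 in knockout libraries 1 to 3, against 2771, 3672 and 3693 in wild type libraries 1 to 3. Every knockout library was above every wild type library, although knockout libraries 2 and 3 were close to wild type libraries 2 and 3. The log2 ratio of (RPM + 1) averaged 12.07 ± 0.41 in the knockout and 11.62 ± 0.23 in the wild type (SD, n = 3 each), a difference of 0.45 (exact two-sided permutation p = 0.1, as small as the design allows, and 0.2 adjusted over 6 tests). Without knockout library 1 the difference was 0.21. Without wild type library 1 it was 0.32. With a pseudocount of 5 it was 0.27. Arm ratios of 22 of the 49 miRNAs (44.9%) did not overlap between genotypes, so a split of this kind was common.

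The ratio of miR-194-5p to miR-194-3p was 182, 189 and 159 in knockout libraries 1 to 3, against 198, 179 and 185 in wild type libraries 1 to 3. The groups overlapped, and the log2 difference was -0.09 (exact two-sided permutation p = 0.5, adjusted 0.5). The passenger strand miR-194-3p, of the chromosome 1 hairpin, and the guide strand, of both hairpins, thus did not differ detectably in their change at this depth and number of libraries.

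Between the guide strands, miR-192-5p exceeded miR-194-5p by a factor of 4.26, 3.43 and 4.24 in knockout libraries 1 to 3, against 3.20, 3.74 and 3.44 in wild type libraries 1 to 3. Because miR-194-5p also sums over the chromosome 13 locus, its ratio and order do not describe the co-transcribed chromosome 1 pair alone. The log2 ratio of the guide strands averaged 1.98 ± 0.18 in the knockout and 1.79 ± 0.11 in the wild type (SD, n = 3 each), a difference of 0.20 with overlapping groups (exact two-sided permutation p = 0.3, adjusted 0.36), and 0.30 without knockout library 2. The passenger strands ran the other way. miR-192-3p stood at 0.111, 0.163 and 0.169 of miR-194-3p in the knockout, against 0.229, 0.182 and 0.172 in the wild type, a log2 difference of -0.35 (exact two-sided permutation p = 0.1, adjusted 0.2). This last ratio was added after the data were seen, and without knockout library 1 or wild type library 1 the difference was -0.19 or -0.23, and with a pseudocount of 5 it was -0.19.

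**Figure D4:**
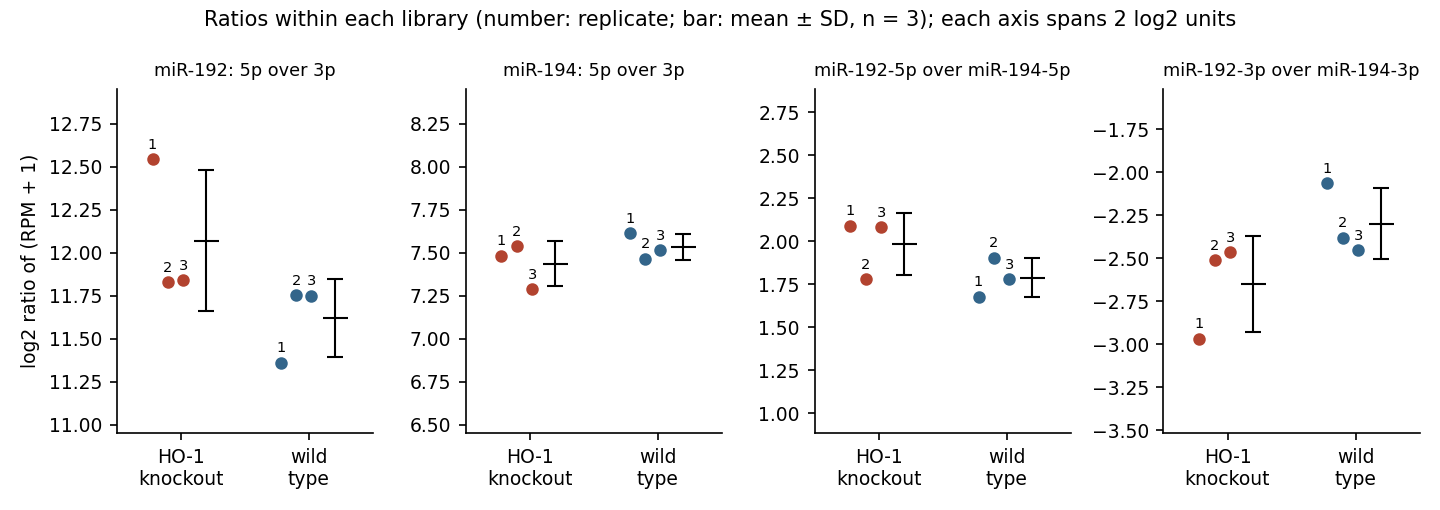
Log2 ratios of (RPM + 1) within each library for the arms of miR-192 and miR-194, the guide strands and the passenger strands; points are libraries numbered by replicate, bars are mean ± SD, and each axis spans 2 log2 units. The arm ratio of miR-192 is highest in knockout library 1 and lowest in wild type library 1, and the guide strand ratio overlaps between genotypes.

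Both guide strands were lower in the knockout, but within a genotype they did not keep the same order. In the knockout, miR-192-5p was highest in library 3 and miR-194-5p in library 2. In the wild type, miR-192-5p was highest in library 2 and miR-194-5p in library 1. Deviations from the genotype mean had the same sign for both in 2 of the 6 libraries. The count was 3 of 6 for the arms of miR-192 and also for the arms of miR-194. It was 4 of 6 for the passenger strands, and 5 of 6 both for miR-192-3p with miR-194-5p and for miR-192-5p with miR-194-3p. The libraries fell into separate groups by genotype, and 3 per genotype are too few to test a relation within them.

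**Figure D5:**
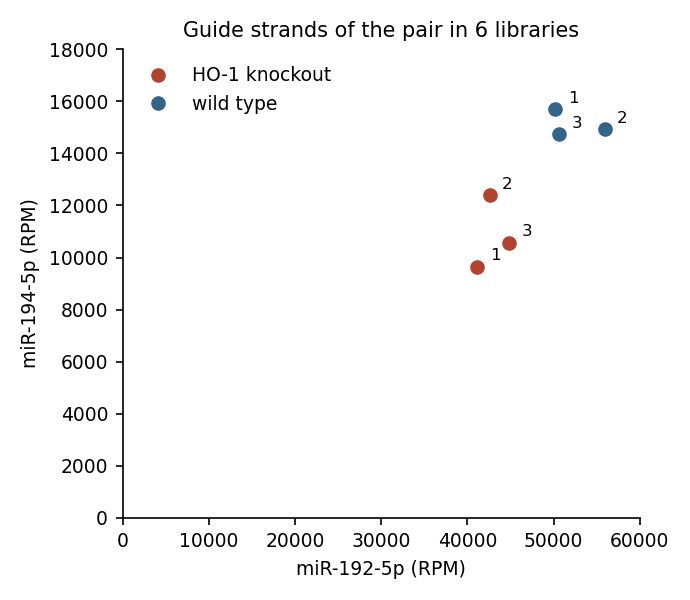
miR-194-5p against miR-192-5p, both in RPM on linear axes from 0, in 3 HO-1 knockout and 3 wild type libraries numbered by replicate. The knockout libraries lie at 41156.5 to 44804 and the wild type libraries at 50218 to 55930 on the horizontal axis, with no shared order inside either genotype.

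The miRNAs whose pattern was most like each guide strand were found among those averaging at least 10 RPM, by Pearson's r of log2(RPM + 1) over 6 libraries, a likeness that the step between genotypes and the shared totals enter. For miR-192-5p they were miR-190a-5p (likeness 0.98), miR-193a-5p (0.96) and miR-26a-5p (0.95). miR-190a-5p had 7.85 to 9.79 RPM in the knockout and 12.2 to 17.3 RPM in the wild type, so it met the mean of 10 RPM through the wild type, and its likeness is no support for a shared pattern. miR-26a-5p had 37172 to 38122 RPM in the knockout and 44307 to 47589 RPM in the wild type. For miR-194-5p they were miR-30b-5p (0.99), miR-92a-3p (0.98) and the endothelial miR-126a-3p (0.97). miR-30b-5p had 694 to 1147 RPM in the knockout and 1636 to 1845 RPM in the wild type. The partner guide strand came at place 38 of 217 for miR-192-5p and at place 78 of 217 for miR-194-5p (likeness 0.85), and 20 and 53 miRNAs had a likeness above 0.9 to each.

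Of 11 tested p53-linked miRNAs outside the family, 4 fell, beside 5.61% of the 570, and 7 did not pass. In the test limited to miRNAs averaging at least 10 RPM, 4 of 8 fell, beside 41 of 218. The median log2 change of the 11 was -0.38, beside -0.12 for all 570 tested miRNAs and -0.29 for the 218 averaging at least 10 RPM. It was -0.19 with TMM scaling, and ran from -0.50 to -0.19 with 1 library left out. The 4 were miR-143-3p and miR-145-5p, known from smooth muscle, and miR-15a-5p and miR-16-5p, which restrain the cell cycle. miR-143-3p, the most abundant, fell to 5023 to 7048 RPM in the knockout, against 8694 to 13412 RPM in the wild type. miR-145-5p was at 334 to 553 RPM in the knockout and 830 to 864 RPM in the wild type, miR-16-5p at 447 to 601 and 875 to 934 RPM, and miR-15a-5p at 14.9 to 23.0 and 32.5 to 45.3 RPM. miR-34a-5p, a direct p53 target, stood at 39.8 to 67.6 RPM in the knockout and 34.3 to 63.8 RPM in the wild type. The count of 4 was 2 without knockout library 1 or 2, 1 without knockout library 3 or wild type library 1, and 0 without wild type library 2. In that last limma fit, 5 of the 11 had an unadjusted p below 0.05, beside 100 of 559 tested miRNAs. edgeR's quasi-likelihood test on recovered reads called 5 of the 11, of which 4 were lower and 1 higher, beside 10.7% of the 570.

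Of 10 tested partners in TGF-beta signalling and epithelial-mesenchymal transition, 3 fell, 1 rose and 6 did not pass, beside 5.61% of the 570 that fell and 0.702% that rose. In the test limited to miRNAs averaging at least 10 RPM, 3 of 8 fell and 1 rose. Beside them, 41 of 218 fell and 9 rose. The miR-200 family, which represses the Zeb factors, has 5 members in this list, and the 3 that fell were miR-200a-3p, miR-200b-3p and miR-429. miR-200b-3p fell to 207 to 238 RPM in the knockout, against 621 to 1123 RPM in the wild type, miR-200a-3p to 153 to 189 against 300 to 485 RPM, and miR-429 to 20.9 to 26.6 against 39.3 to 61.4 RPM. The other two did not pass. miR-200c-3p stood at 50.5 to 65.1 RPM in the knockout and 39.3 to 58.3 RPM in the wild type (log2 change 0.35, and 0.57 with TMM scaling), and miR-141-3p at 3.78 to 5.54 RPM in the knockout and 3.18 to 7.37 RPM in the wild type (log2 change -0.09, and 0.10 with TMM scaling). miR-29b-3p, which represses collagen genes, rose to 131 to 165 RPM in the knockout, against 72.3 to 87.8 RPM in the wild type. miR-21-5p, the most abundant, stood at 75400 to 80510 RPM in the knockout and 67667 to 72014 RPM in the wild type (limma adjusted p = 0.32). The median log2 change was -0.14, and 0.05 with TMM scaling, and the count of 4 calls was 2 without knockout library 2 and 1 without knockout library 3.

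Of 11 liver-enriched miRNAs outside the family, miR-30a-5p fell, to 3522 to 4230 RPM in the knockout, against 5786 to 6505 RPM in the wild type, and 10 did not pass. This count of 1 stands beside 5.61% of the 570 that fell. In the test limited to miRNAs averaging at least 10 RPM, 3 of the 11 fell and 1 rose. Beside them, 41 of 218 fell and 9 rose. The median log2 change of the 11 was -0.33, and -0.11 with TMM scaling. miR-122-5p, the most abundant, had a log2 change of 0.30 (limma adjusted p = 0.095), opposite in sign to miR-192-5p and miR-194-5p. Its other arm, miR-122-3p, stood at 1174 to 1455 RPM in the knockout and 1370 to 1465 RPM in the wild type. The call of miR-30a-5p was lost with RLE scaling, with upper-quartile scaling and without knockout library 3, and 2 members were called without wild type library 2.

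Epithelium is a known source of miR-192 and miR-194, and part of its markers moved with genotype. The 7 markers, all detected, summed to 999 to 1057 RPM in the knockout and 1880 to 2454 RPM in the wild type, and 4 of the 7 fell, beside 5.61% of the 570 tested miRNAs. A larger share, 41 of 218, fell in the test limited to miRNAs averaging at least 10 RPM. The 4 markers that fell were miR-203a-3p and miR-200a-3p, miR-200b-3p and miR-429. The last 3 are the same that fell among the TGF-beta partners, so these lists are not independent. The 3 that did not pass were miR-203b-3p (log2 change -0.53), miR-141-3p (-0.09) and miR-200c-3p, whose log2 change of 0.35 was opposite in sign. Endothelial markers summed to 19147 to 21287 RPM in the knockout and 25222 to 26982 RPM in the wild type, and those of smooth muscle to 5842 to 7769 RPM in the knockout and 9790 to 14537 RPM in the wild type. Both endothelial markers fell, but miR-126a-3p did not pass with TMM scaling (log2 change -0.17, limma adjusted p = 0.53). Of 3 smooth muscle markers, 2 fell. The other, miR-145-3p, had a log2 change of 0.08, and 0.30 with TMM scaling. Leukocyte markers summed to 811 to 923 RPM in the knockout and 757 to 871 RPM in the wild type, and none of the 4 passed. miR-142-3p had 368 to 390 RPM in the knockout and 260 to 306 RPM in the wild type. It passed with TMM scaling (log2 change 0.65, limma adjusted p = 0.021). The main log2 changes of miR-223-3p (-0.43), miR-150-5p (-0.30) and miR-142-5p (-0.06) were negative. Red blood cell markers summed to 377 to 459 RPM in the knockout and 467 to 580 RPM in the wild type. Of 2 tested endocrine and pancreatic markers, miR-375-3p rose, beside 0.702% of the 570 that rose. It had 99.3 to 124 RPM in the knockout and 33.7 to 52.6 RPM in the wild type (log2 change 1.32, limma adjusted p = 0.015). The other, miR-217-5p, did not pass and reached at most 0.55 RPM. No marker of neurons (2 tested) or striated muscle (3 tested) passed. The part of all these cells in the lower values of miR-192 and miR-194 was not tested.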

How the data were processed

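Each small RNA library started from 1 μg of total RNA and was read from a single end over 50 bp, per the labels' protocols. The authors deposited 1 table of RPM, with their genotype means, log2 fold changes and p-values, per the file headers. Each library sums to 1000000 RPM, and all 6 columns were matched to a sample by name. FastQC, BWA, edgeR and rn6 appear in the submitters' processing notes. How reads were trimmed, and how reads fitting more than 1 miRNA were assigned, was not stated in the sources used here. Ligation-based libraries do not capture every sequence equally, which was not tested here.

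limma 3.58.1 with an intensity trend was fitted in R 4.3.3 to log2(RPM + 1) of the 570 miRNAs detected in at least 1 library. Genotype was the sole term, with Benjamini-Hochberg adjustment over all of them and a threshold of 0.05. Its changes understate those of rare miRNAs. Shares and ratios were compared by exact two-sided permutation over libraries. Separate animals are not stated for the libraries, so a p-value reflects only the spread among them, which may be technical. Whole reads were recovered from the RPM steps. Between 97.8% and 98.9% of values above 0 lay within 0.0051 RPM of a whole read, although in wild type library 1 the step of 0.0996 RPM is too close to 0.1 for low values alone to show it. Count tests with edgeR 4.0.16 and DESeq2 1.42.0 on these reads were alternatives only. Wilson intervals cover counting error only, and limma's intervals reflect the spread among libraries. The fits were tested on simulated data.

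The members, the lists and the rule for named miRNAs were chosen with earlier results of these data known. The rule names every member, the called and the most abundant miRNAs of each list, and the 3 patterns most like each guide strand. miR-34a-5p and miR-122-3p were added after their values were seen. miR-605 of the p53 list was not analysed here, and miR-216a-5p and miR-377-3p were at 0 in every library. Sequences are from RefSeq on GRCr8.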

Additional observations from a re-analysis of the deposited data

How the results depend on the processing

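The log2 change of each of the 4 arms kept its sign in all 18 alternatives. The limit of 10 RPM, the omitted intensity trend and the replicate block leave the estimate unchanged, so they could not alter its sign. With each of the other scalings the groups of miR-192-5p overlapped, and its change ran from -0.09 to -0.03. The call of miR-194-5p did not survive scaling by upper quartiles (-0.27), RLE (-0.24) or TMM (-0.26). It was also lost with totals without the 10 most abundant miRNAs (-0.23) or without miR-122-5p (-0.29), without the intensity trend (-0.48), in edgeR (-0.27) and DESeq2 (-0.25) on recovered reads, and in 5 of the 6 fits with 1 library left out. Over all 6 of those fits the change ran from -0.58, without knockout library 2, where the call was kept, to -0.40. In the fit with the replicate number as a block it was -0.48 (limma adjusted p = 0.094). Same-numbered libraries had correlated deviations of 0.03, 0.18 and 0.20, and differently numbered ones ran from -0.29 to 0.06. Knockout libraries 2 and 3 correlated best with their own number, and knockout library 1 with wild type library 3 (0.04). These values do not settle whether the numbers pair the samples. The labels state no pairing, and none was assumed in the main fit. miR-192-5p passed, at -0.29, with a mean of at least 10 RPM, where 218 miRNAs were tested. Calls over all miRNAs numbered 36, with 4 higher and 32 lower. They numbered 55 without the 10 most abundant, 22 in the block, 61 in edgeR, 72 in DESeq2, and 5 to 26 with 1 library left out, and TMM scaling gave 20 higher and 29 lower. miRNAs whose groups did not overlap numbered 148, and 178 to 217 with 1 library left out. The correlation of miR-192-5p with miR-194-5p planned over 6 libraries was 0.85, 0.44 with TMM scaling and 0.061 for deviations from genotype means. It is not read as a relation, because the genotypes form separate groups. The cause of these differences was not tested. Ratios with miR-215 were not run. Depth limits miR-192-3p, with 49 to 182 reads per library, and not the guide strands.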
